A study of Mus musculus with 6 samples.

Results

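Cells build cholesterol and fatty acids from acetyl-CoA, and 30 mouse genes of these routes were followed in satellite cells of skeletal muscle, its stem cells, with and without the DNA methyltransferase gene Dnmt1. The genes were taken by name for their place in these routes, 21 for sterols and 9 for fatty acids, and all 30 were present among the 23420 genes of the deposited table. Of these, 29 carried the symbol used here and Msmo1 was listed under its older symbol Sc4mol. Messenger RNA was sequenced in 3 control and 3 Dnmt1 KO libraries. Per the labels, the mice were bred from Pax7-CreERT2 and Dnmt1 flox lines, were C57BL/6 males of 7 weeks and were given tamoxifen or vehicle over 5 days. Pax7-CreERT2 is a Cre recombinase that tamoxifen activates in cells expressing Pax7, so recombination is limited to satellite cells and their descendants. The sources used here do not tie tamoxifen, vehicle or the Cre allele to a group, and do not say whether libraries of a group came from separate animals. The p-values below thus measure the spread between these libraries, which may be technical.

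The sterol route joins acetyl-CoA units into HMG-CoA and mevalonate, turns these into isoprenoids and squalene, and closes and trims the squalene into cholesterol. The fatty acid route carboxylates acetyl-CoA, extends it to palmitate, and then elongates and desaturates the chain. Both are driven by SREBP transcription factors, which are held in the endoplasmic reticulum by INSIG proteins while sterols are plentiful. In proliferating and fusing muscle cells these lipids go into new membrane.

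Values are read counts that the authors multiplied by 1 factor per library. Recovered depths ran from 954786 to 2021725 reads, and the knockout libraries included the shallowest. Dnmt1, the targeted gene, had values of 614, 539 and 655 in controls against 74.6, 36.1 and 81.2 in knockouts, always listed in the order of replicates 1 to 3 (log2 fold change -3.29, SE 0.27, limma adjusted p = 0.00121). All 10 satellite cell markers examined were detected, and they summed to 4740 to 5212 in controls and 4670 to 5072 in knockouts. Of the 10, 6 had positive log2 fold changes, the highest that of Cdh15 (0.93, limma adjusted p = 0.394). Pax7 was lower in knockouts, at 58.2 to 66.5 against 99.04 to 124 in controls (log2 fold change -0.85, limma adjusted p = 0.0441), and was the only one of the 10 to pass. Myf5 (-0.77, limma adjusted p = 0.184) and Myod1 (-0.35, limma adjusted p = 0.331) were also lower in every knockout than in every control. Without overlap, 3 of the 10 thus lay lower and 0 higher, where 7.81% and 13.4% of all genes tested did. Adipocyte markers were near 0, with 5 of 8, including Adipoq and Plin1, at 0 in all 6 libraries and a summed value of 2.77 to 19.999 in controls and 3.69 to 17.2 in knockouts. The 8 Schwann cell markers summed to 15.05 to 39.0 in controls and 46.8 to 72.2 in knockouts. Macrophage markers summed to 1.003 to 4.15 and 3.69 to 10.04, and endothelial markers to 6.67 to 15.05 and 11.1 to 18.6. Fibro-adipogenic markers summed to 374 to 693 and 690.4 to 1130, and the 5 tested had positive log2 fold changes. Of these, Gsn (2.20, limma adjusted p = 0.0431) and Col1a1 (2.28, limma adjusted p = 0.0476) passed, where 1.67% of all genes tested did on the higher side. Col3a1, the most abundant, had means of 371 in controls and 452 in knockouts, and Pdgfra had 4.94 and 5.28. Lum and Dpt were at 0 in all 6 libraries. Control replicate 2 stood apart in muscle contractile genes, as given with the sterol values below.

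None of the 30 genes passed the test of knockout against control. Of all 12591 genes tested, 1.76% passed (limma on log2(value + 1), Benjamini-Hochberg adjusted p below 0.05), 210 or 1.67% higher and 12 or 0.0953% lower. All 30 genes were high enough to test, and their adjusted p ran from 0.25 to 0.998. The authors' deposited table likewise gave no q-value below 0.05 to any of the 30, with a lowest q of 0.66 (Elovl6), against 351 genes below it in the whole table. On the reads recovered from 4 libraries, edgeR and DESeq2 called 0 of the 29 genes they gave an adjusted p (all but Tm7sf2), where they called 0.0636% and 0.317% of all genes tested. The sterol genes had a median log2 fold change of -0.05, with 9 positive and 12 negative values, and the fatty acid genes one of -0.25, with 4 positive and 5 negative. The median over all genes tested was 0.02. In these bulk libraries, a change in the share of cells of one type and a change in RNA per cell cannot be told apart.

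**Figure D1:**
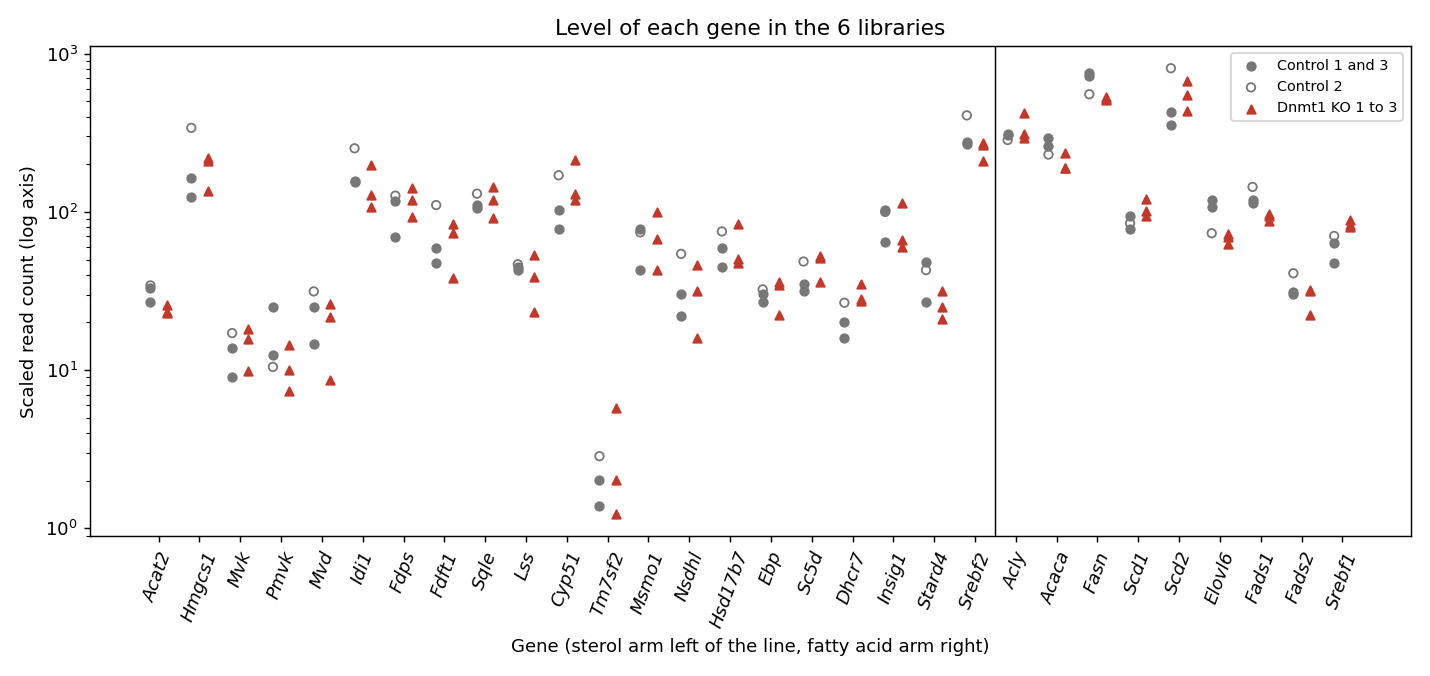
Scaled read count (log axis) of each of the 30 genes in every library, with controls as grey circles (control replicate 2 open) and Dnmt1 KO libraries as red triangles. The groups overlap in 19 of the 21 sterol genes, and in most sterol genes the open circle is the highest control.

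The mevalonate genes carry acetyl-CoA to farnesyl diphosphate, and 0 of 7 passed the test. Acat2, the thiolase that starts the route, was the only one of the 7 without overlap between groups, at 33.1, 34.3 and 27.0 in controls and 25.8, 23.1 and 23.4 in knockouts. Every knockout library lay below every control, by a small margin (log2 fold change -0.37, SE 0.25, adjusted p = 0.518), and Acat2 shares 39.1% of its 50-base transcript words with its neighbour Acat3. Hmgcs1, the HMG-CoA synthase, had 164, 340.0 and 124 in controls and 209, 220 and 135 in knockouts, so that control replicate 2 was higher than every knockout and the other controls overlapped with them (log2 fold change -0.05, SE 0.34, adjusted p = 0.960).

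Idi1, which isomerises isopentenyl diphosphate, showed the same order of controls, with 156, 252 and 155 against 128, 199 and 107 (log2 fold change -0.39, SE 0.26, adjusted p = 0.517). Fdps, which makes farnesyl diphosphate, had 116, 127 and 69.8 against 119, 141 and 92.3 (log2 fold change 0.20, SE 0.25, adjusted p = 0.747). The groups overlapped in both genes. Mvk, Pmvk and Mvd, the kinases and the decarboxylase between mevalonate and isopentenyl diphosphate, were low, with 6 to 33 reads per library. Their log2 fold changes were 0.12, -0.50 and -0.39. Their intervals were as wide as -1.38 to 0.60 for Mvd, and the lowest bound was -1.44 for Pmvk.

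Past farnesyl diphosphate, 0 of 11 enzymes from squalene to cholesterol passed, and their median log2 fold change was 0.02. Sqle, the squalene epoxidase and a rate-limiting step, had 110, 130 and 105 in controls and 119, 143 and 91.1 in knockouts. Its 95% interval ran from -0.43 to 0.45, or 0.74 to 1.37 times the control level (log2 fold change 0.01, SE 0.20, adjusted p = 0.983). Knockout replicates 2 and 3 thus enclosed all 3 controls. Fdft1, the squalene synthase, had 59.2, 110 and 47.7 against 73.1, 83.3 and 38.2 (adjusted p = 0.885), and 774 bases of its exons lie opposite exons of Ctsb. Without the strand setting of the counting, reads of these 2 genes cannot be told apart there.

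Cyp51, the lanosterol demethylase, had 103, 170 and 78.1 in controls and 130, 212 and 118 in knockouts, where knockout replicate 2 was the highest library and control replicate 3 the lowest (log2 fold change 0.41, SE 0.30, adjusted p = 0.546). Dhcr7, the reductase of the last step in one branch of cholesterol synthesis, had 16.1, 26.7 and 20.1 against 27.2, 35.1 and 28.3. Its groups did not overlap, and its log2 fold change was the highest of the 30 (0.53, SE 0.29, adjusted p = 0.416). Lss, which folds squalene epoxide into lanosterol, was even in controls, at 45.1, 46.7 and 42.9, and spread in knockouts, at 38.7, 53.2 and 23.4 (adjusted p = 0.673).

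The other enzymes of this stretch trim methyl groups and shift double bonds, and their groups overlapped. The log2 fold change was 0.07 for Msmo1, which oxidises the methyl groups (adjusted p = 0.939) and -0.20 for Nsdhl, which removes them (adjusted p = 0.853). It was -0.0029 for the keto reductase Hsd17b7 (adjusted p = 0.998), 0.02 for the isomerase Ebp (adjusted p = 0.979) and 0.27 for Sc5d, the desaturase before Dhcr7 (adjusted p = 0.648). Tm7sf2, a sterol reductase, was at the edge of detection, with 1 to 4 reads per library and a widest interval of -0.99 to 1.46.

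Of the 3 sterol genes that regulate or carry, Srebf2, which encodes the SREBP2 factor that drives this route, had 267, 408 and 277 in controls and 272, 263 and 209 in knockouts. Control replicate 2 was again the highest, and the remaining controls overlapped with knockout replicate 1 (log2 fold change -0.33, SE 0.19, adjusted p = 0.452). Stard4, a cytosolic carrier of sterols, had 48.2, 42.9 and 27.0 against 31.5, 25.1 and 20.9, the lowest log2 fold change of the 30 (-0.57, SE 0.29, adjusted p = 0.397). Insig1, the sterol-induced brake on SREBP, had 102, 99.99 and 65.0 against 66.0, 113 and 60.3 (adjusted p = 0.788).

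**Figure D2:**
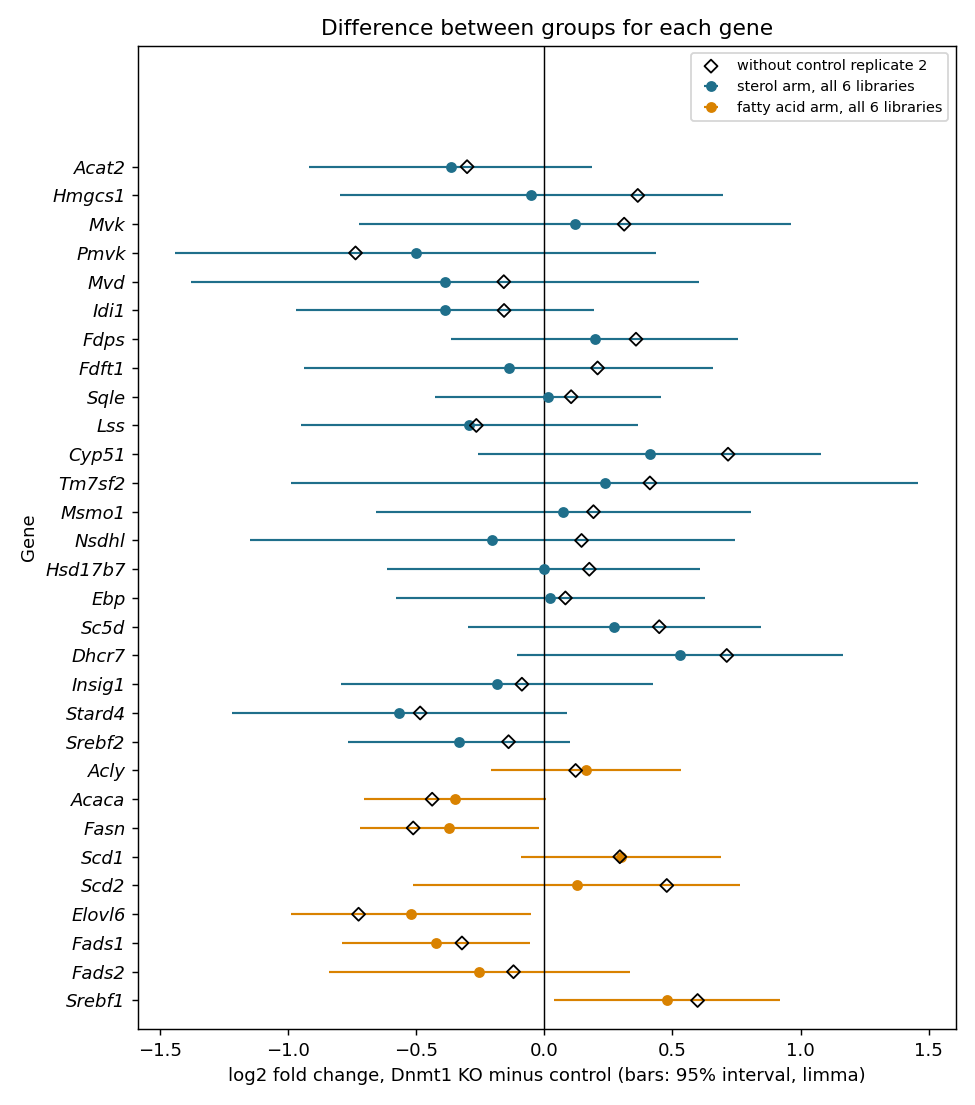
Log2 fold change of each gene, Dnmt1 KO minus control, with its 95% interval from limma on all 6 libraries (filled points) and the value without control replicate 2 (open diamonds). Intervals of 4 fatty acid genes and of 0 sterol genes exclude 0, and the diamonds of most sterol genes lie to the right of the filled points.

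The fatty acid genes had steadier values, and 5 of 9 showed no overlap between the groups, 3 lower and 2 higher in knockouts, where 7.81% and 13.4% of all genes tested lay lower and higher in this way. That is 55.6% of the arm, against 9.52% of the sterol arm and 21.2% of all genes tested. Unadjusted p was below 0.05 for 4 of the 9 fatty acid genes and 0 of the 21 sterol genes, where 15.5% of all genes tested had such a p. The 4 were Fasn, Elovl6 and Fads1 on the lower side, where 4.8% of all genes stood, and Srebf1 on the higher side, where 10.7% stood. These shares describe the chosen genes, and no gene among them passed after adjustment.

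Fasn, the synthase that builds palmitate, had 725, 554 and 760 in controls and 512, 517 and 533 in knockouts. All knockouts lay below all controls, and control replicate 2 was the control nearest to them (log2 fold change -0.37, SE 0.16, adjusted p = 0.291). Acaca, the carboxylase that supplies malonyl-CoA, had 263, 230 and 292 against 191, 189.6 and 236, with an overlap through knockout replicate 3 (log2 fold change -0.35, SE 0.16, adjusted p = 0.330). Transcripts of other genes hold 30.4% of its 50-base words. These 17201 words come from all its annotated transcripts, while its counted exons sum to 9032 bases, so the share within the counted exons is not known. Acly, which makes cytosolic acetyl-CoA for both arms, had 308, 285 and 313 against 292, 421 and 313 (log2 fold change 0.16, SE 0.17, adjusted p = 0.678). Knockout replicate 2 alone stood above the rest in Acly.

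Among the elongation and desaturation enzymes, Elovl6, which elongates palmitate, had 118, 73.3 and 108 in controls and 63.1, 72.2 and 68.9 in knockouts. The groups did not overlap, but control replicate 2 lay just above the highest knockout value (log2 fold change -0.52, SE 0.21, adjusted p = 0.269). Fads1, a desaturase of polyunsaturated fatty acids, had 119, 144 and 113 against 87.5, 94.3 and 97.2. Its groups did not overlap either, and here control replicate 2 was the farthest from the knockouts (log2 fold change -0.42, SE 0.16, adjusted p = 0.25). Fads2, the desaturase that acts before Fads1, had 31.1, 40.9 and 30.4 against 31.5, 32.1 and 22.2, with overlap (adjusted p = 0.684).

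The stearoyl-CoA desaturases Scd1 and Scd2, which make monounsaturated fatty acids, did not share this order. Scd1 had 94.3, 84.8 and 77.4 in controls and 94.6, 121 and 101 in knockouts. The groups were just parted (log2 fold change 0.30, SE 0.17, adjusted p = 0.455). Scd2, the more abundant one per length, had 425, 809 and 355 against 545, 672 and 434, with control replicate 2 the highest library (log2 fold change 0.13, SE 0.29, adjusted p = 0.866). Transcripts of other genes, each other's included, hold 4.56% and 3.97% of their 50-base words.

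Srebf1 encodes SREBP1, the factor best known for driving the fatty acid enzymes. Its values were 63.2, 70.5 and 47.7 in controls and 80.3, 82.3 and 88.6 in knockouts, with every knockout above every control (log2 fold change 0.48, SE 0.20, adjusted p = 0.277). Among the enzymes of the arm, Fasn, Elovl6 and Fads1 lay lower without overlap, and Scd1, like Srebf1, lay higher without overlap. Those with overlap were also split, with Acly (0.16) and Scd2 (0.13) positive and Acaca (-0.35) and Fads2 (-0.25) negative. Counts do not separate the SREBP1 isoforms, and 107 bases of Srebf1 exons lie opposite those of Rai1.

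The intervals state how large a change these libraries leave room for. All 9 fatty acid intervals lay within a 2-fold change in either direction, from -0.99 at the lowest bound to 0.92 at the highest. Among the sterol genes, 14 of 21 did, and the remaining intervals reached as far as -1.44 and 1.46. Sterol genes had a median of 46 reads per library and fatty acid genes one of 127, and the part of depth in the width was not tested. Standard errors ran from 0.16 for Fasn, with 357 to 1099 reads, to 0.55 for Tm7sf2, with 1 to 4 reads. Hmgcs1, with 110 to 357 reads, had a larger standard error (0.34) than Acat2 with 18 to 39 reads (0.25).

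Most sterol genes were high or low in the same libraries. Averaged over the 21 genes, log2(value + 1) stood at 5.60, 5.93 and 5.28 in controls and at 5.63, 5.84 and 5.13 in knockouts. Their spread within a group (SD 0.33 in controls and 0.36 in knockouts, n = 3 each) exceeded the difference between the group means of 5.61 and 5.53. Of the 21 genes, 17 had their highest control value in control replicate 2, and 12 had their lowest value of all libraries in knockout replicate 3. The same mean over 16 contractile genes was 4.18, 7.52 and 3.54 in controls and 6.55, 6.47 and 4.42 in knockouts. The 3 libraries with the highest contractile mean were also the 3 with the highest sterol mean, although knockout replicate 1 exceeded control replicate 1 only slightly in the latter. With contractile level as a covariate the sterol median log2 fold change went from -0.05 to -0.28, with 16 of 21 values negative in place of 12, and 0 of 21 genes passed (lowest limma adjusted p = 0.0700). On the reads of 4 libraries the sterol median was -0.31 by edgeR, over 20 genes, and -0.32 by DESeq2. These 4 exclude control replicate 1 and knockout replicate 2, the library in which 10 of the 21 genes were highest. By limma the median was -0.12 without control replicate 1 and -0.26 without knockout replicate 2. The fatty acid mean varied less, at 7.33, 7.35 and 7.22 in controls and 7.14, 7.32 and 7.16 in knockouts (SD 0.07 and 0.09).

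**Figure D3:**
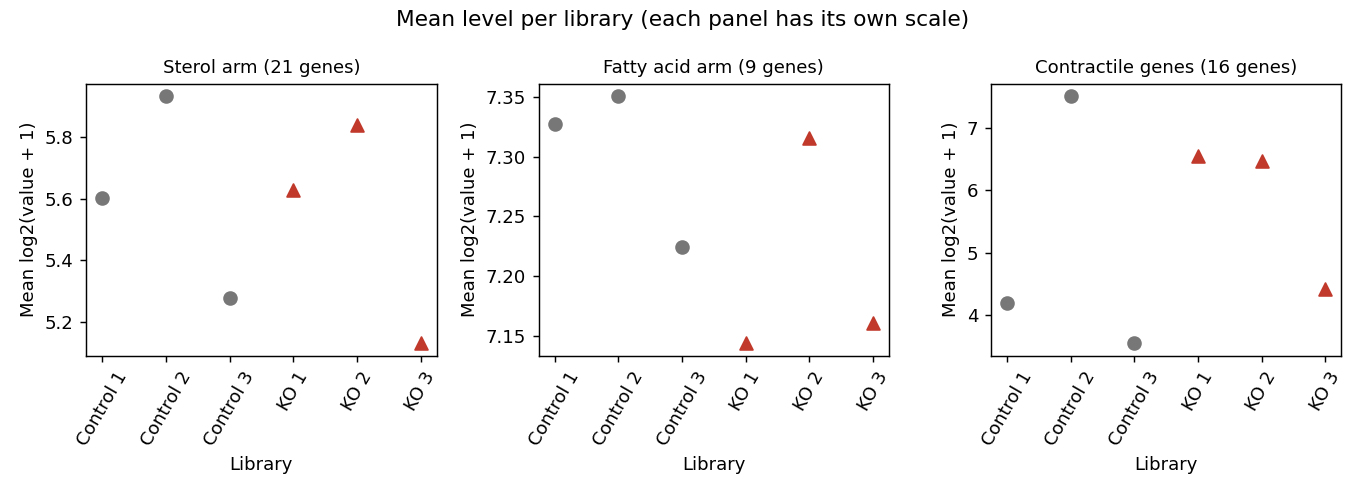
Mean log2(value + 1) per library of the sterol genes, the fatty acid genes and the contractile genes, with controls as grey circles and Dnmt1 KO libraries as red triangles, each panel on its own scale. Control replicate 2 is the highest in all 3 panels, at 5.93, 7.35 and 7.52.

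Leaving out control replicate 2 changed several of these values. The sterol median went to 0.15, with 13 of 21 values positive, and the fatty acid median to -0.12. In that comparison 6.21% of 12445 genes passed, 5.3% higher and 0.916% lower, and Elovl6 was the 1 gene of the 30 that did (log2 fold change -0.72, SE 0.20, adjusted p = 0.0458). Control values of Elovl6 were then 118 and 108 against 63.1, 72.2 and 68.9. Fasn came closest after it (log2 fold change -0.51, SE 0.15, adjusted p = 0.0627), followed by Cyp51 (0.72, SE 0.24, adjusted p = 0.1004) and Srebf1 (0.60, SE 0.22, adjusted p = 0.123). Hmgcs1 (0.36), Fdft1 (0.21), Hsd17b7 (0.18) and Nsdhl (0.15) changed sign to positive without that library, and Scd2 reached 0.48 (adjusted p = 0.158). Leaving out knockout replicate 3 instead took the sterol median to 0.17 and leaving out control replicate 3 took it to -0.33, with 0 of 30 genes passing either way.

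Genes of the neighbouring steps gave 0 calls in any of 5 further lists in the main limma comparison of all 6 libraries. The median log2 fold changes were 0.16 for other sterol genes, 0.19 for SREBP regulation, 0.64 for sterol export and storage, 0.01 for other fatty acid genes and 0.31 for fatty acid oxidation. Unadjusted p was below 0.05 on the higher side for 1 of 11, 2 of 11, 3 of 11, 3 of 23 and 0 of 12 tested genes of these lists. On the lower side this held for 1 gene, of fatty acid oxidation. Over all genes tested, 10.7% stood on the higher side and 4.8% on the lower side in this way. Of 11 tested other sterol genes, Lbr, a nuclear envelope protein with sterol reductase activity, had 226, 215 and 241 against 204, 138 and 194 (log2 fold change -0.36, adjusted p = 0.364).

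Of 11 tested regulators of SREBP and sterol balance, Mylip, a ubiquitin ligase, had 1.003, 14.3 and 1.38 in controls and 10.04, 50.2 and 17.2 in knockouts, with control replicate 2 inside the knockout range (log2 fold change 2.38, SE 0.80, adjusted p = 0.191). Of 11 tested genes of sterol export and storage, 9 had positive values and the median was 0.64, where 6600 of all 12591 genes tested were positive. Npc2 and Npc1, which move cholesterol out of lysosomes, had log2 fold changes of 0.68 (adjusted p = 0.153) and 0.79 (adjusted p = 0.223). Npc2 had 219, 163 and 188 in controls and 303, 396 and 230.1 in knockouts, every knockout above every control.

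Of 23 other fatty acid and glycerolipid genes tested, Hacd2, a dehydratase of chain elongation, had 39.1, 44.8 and 43.6 against 103, 64.2 and 67.7, without overlap (log2 fold change 0.84, SE 0.23, adjusted p = 0.111). Lpin1, a phosphatidate phosphatase, had 0, 10.48 and 2.07 against 15.8, 28.1 and 8.61 (adjusted p = 0.194). Of 12 tested genes of fatty acid oxidation, Ppargc1a, a coactivator of mitochondrial genes, had 4.01, 10.48 and 4.15 against 1.43, 0 and 1.23 (log2 fold change -1.92, SE 0.57, adjusted p = 0.138). Slc25a20, the carnitine carrier, had 21.1, 23.8 and 17.3 against 37.3, 30.1 and 25.8 (adjusted p = 0.373). Without control replicate 2, limma called Mylip (log2 fold change 3.32, adjusted p = 0.0051), Lpin1 (3.26, adjusted p = 0.00711) and Npc1 (1.11, adjusted p = 0.0108) higher. In that comparison 5.3% of all genes tested passed on the higher side.

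Levels were compared between genes only per kilobase of summed exon length. On that scale of control means, Scd2 was the highest of the 30 at 97.2 units per kilobase, followed by Fdps (71.4), Srebf2 (69.4), Fasn (68.4), Acly (68.2), Idi1 (65.5) and Hmgcs1 (63.8). Tm7sf2 was the lowest at 1.41, below Dhcr7 (7.43) and Mvk (8.04). Fdps and Idi1 have pseudogene copies, and transcripts of other genes hold 26.2% and 17.7% of their 50-base words, so reads could be split there.

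The starts of these genes were examined for the motifs through which the routes are known to be driven. SREBP binds the sterol regulatory element (SRE) beside NF-Y, which reads the CCAAT box. RefSeq windows of 250 bases before to 50 after the start were at hand for 23 of the 30 genes, 28 windows in all. The element written TCACNCCAC, searched on both strands, matched in 1 of 20 sterol windows, that of Hmgcs1, and in 0 of 8 fatty acid windows, where 1.13% of 11989 windows of tested genes hold it. The CCAAT box matched in 80% of the sterol and 50% of the fatty acid windows, against 37.8% of windows of tested genes. The Sp1 box GGGCGG matched in 85%, 50% and 62.8%, and the E-box CACGTG in 20%, 0% and 10.1%. CpG pairs, the bases that Dnmt1 methylates, numbered a median of 22 per sterol window, 17.5 per fatty acid window and 20 per window of tested genes. The windows of Acaca and Fasn had 1 and 39, the extremes of the set. The 20 sterol windows come from 17 genes and the 8 fatty acid windows from 6. Starts are as annotated, and whether these cells use them was not tested.

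Upstream sequence is shown for 4 genes the comparison turns on: Hmgcs1, the only match to the element; Srebf2, the driver of the sterol route; and Fasn and Elovl6, the genes with the lowest adjusted p without control replicate 2. Each runs from the RefSeq window's first base to the base before the most upstream annotated start within it, on the gene's strand in GRCm38.p6. Hmgcs1 lies at chr13:119690101-119690350 (plus strand), Srebf2 at chr15:82147019-82147180 (plus), Fasn at chr11:120824548-120824797 (minus) and Elovl6 at chr3:129532136-129532354 (plus). Capitals mark the CCAAT box in either orientation and, in Hmgcs1 alone, an exact match to TCACNCCAC.
Hmgcs1: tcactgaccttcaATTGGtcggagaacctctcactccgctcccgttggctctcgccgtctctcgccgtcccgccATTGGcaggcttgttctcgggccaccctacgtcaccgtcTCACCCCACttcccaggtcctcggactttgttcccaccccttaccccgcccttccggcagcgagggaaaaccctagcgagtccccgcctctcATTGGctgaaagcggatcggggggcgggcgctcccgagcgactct
Srebf2: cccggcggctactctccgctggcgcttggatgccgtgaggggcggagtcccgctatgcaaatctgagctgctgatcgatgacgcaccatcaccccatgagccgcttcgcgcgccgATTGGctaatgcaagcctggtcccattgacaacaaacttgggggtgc
Fasn: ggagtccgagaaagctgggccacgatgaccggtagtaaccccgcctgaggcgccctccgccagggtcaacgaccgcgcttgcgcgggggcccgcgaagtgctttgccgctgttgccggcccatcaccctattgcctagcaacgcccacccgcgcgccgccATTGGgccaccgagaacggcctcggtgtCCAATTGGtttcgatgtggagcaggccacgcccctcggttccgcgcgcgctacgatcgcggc
Elovl6: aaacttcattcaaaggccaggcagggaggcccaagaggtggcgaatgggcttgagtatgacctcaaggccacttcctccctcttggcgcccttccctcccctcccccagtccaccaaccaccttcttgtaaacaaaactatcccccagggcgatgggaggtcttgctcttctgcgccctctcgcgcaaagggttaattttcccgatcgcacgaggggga
Hmgcs1 and Fasn each hold 3 CCAAT boxes in these stretches, a pair of them overlapping in Fasn, Srebf2 holds 1 and Elovl6 holds 0. Whether the box goes with the fold changes was not tested. A match is only these letters and shows no binding. Other forms of the sterol regulatory element were not searched, so a missing match does not show that the element is absent.

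**Figure D4:**
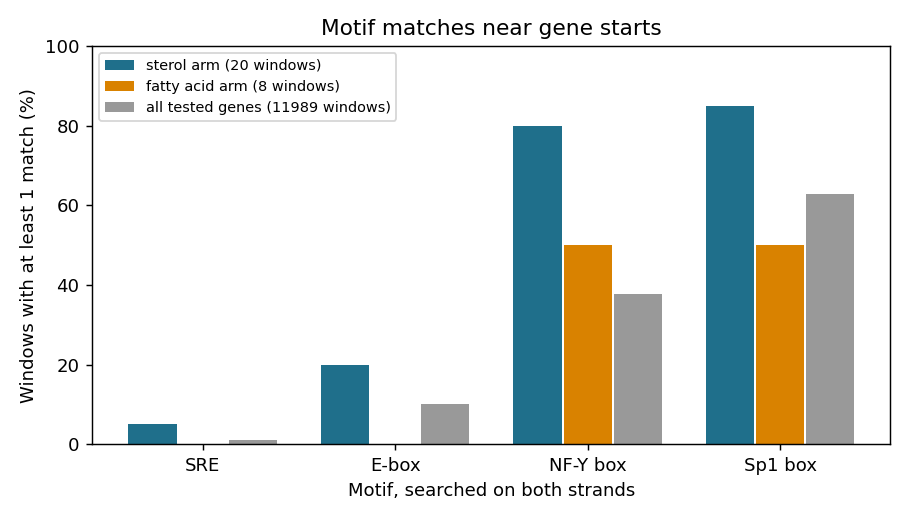
Share of promoter windows (250 bases before to 50 after a gene's start) with at least 1 match to each motif, on either strand, for the sterol genes, the fatty acid genes and all genes tested. The CCAAT box of NF-Y stands at 80%, 50% and 37.8%.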

How the data were processed

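Messenger RNA of 3 control and 3 Dnmt1 KO samples was read from 1 deposited table, and groups follow the sample titles. Per the submitters' processing notes, the authors aligned reads with TopHat to mm10 and counted them with featureCounts; the sources used here give no versions, annotation, strand setting or scaling method. Sample columns of the deposited table are a non-negative signal: counts of reads, scaled once per library. Dividing each library by its smallest non-zero value gave whole numbers for 100% of genes (tolerance 0.001), taken as its reads. The authors' deposited p-value and q-value come from a test whose tool is not stated. Values were transformed as log2(value + 1), so fold changes of low genes are understated. The filter asked for 3 or more libraries with a value of 1 or more, and limma 3.58.1, run in R 4.3.3, compared the groups (intensity trend, Benjamini-Hochberg over all genes tested). The script was tested on simulated counts. edgeR 4.0.16 and DESeq2 1.42.0 were run as alternatives on the recovered reads of 4 libraries in which a check of the steps passed, control replicates 2 and 3 and knockout replicates 1 and 3. The genes named are all 30 members, Dnmt1 and the 2 smallest p-values of each further list; 2 genes this rule names are not reported here. Members and lists were chosen with earlier results of these data known. Older symbols matched 6 list genes. Words of 50 bases came from all GENCODE M21 transcripts of a gene, which can hold sequence outside the counted exons. Promoter windows came from RefSeq (GRCm38.p6). Intervals from limma cover the spread between libraries.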

Additional observations from a re-analysis of the deposited data

How the results depend on the processing

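None of the genes tested among the 30 passed under 15 of 16 alternatives (Tm7sf2 had no adjusted p by edgeR, by DESeq2 or with a mean value of at least 10), and Elovl6 passed without control replicate 2 (count of fatty acid calls 0 to 1 over libraries left out in turn). The sterol count stayed at 0 in all 16. Genes called over the whole table numbered 12 to 659 higher and 1 to 114 lower with each library left out in turn. They numbered 121 and 6 with a pseudocount of 0.1, 507 and 91 with contractile level as a covariate, 5 and 1 by edgeR and 34 and 1 by DESeq2, both on 4 libraries. The replicate number as a block gave 359 and 76 and called 0 of the 30, but called Mylip (adjusted p = 0.0191) and Npc1 (adjusted p = 0.0488). The replicate numbers are not stated to pair samples, so they were not taken as pairing. Deviations of same-numbered libraries correlated at -0.06, 0.22 and 0.31, and those of differently numbered ones at -0.36 to 0.19. The fatty acid median ran from -0.31 to -0.086 and the sterol median, -0.05 in all 6 libraries, from -0.33 to 0.17 with each library left out. The sterol median was -0.28 with contractile level as a covariate, -0.31 by edgeR, -0.32 by DESeq2, -0.095 with a mean value of at least 10, -0.078 with TMM scaling and -0.017 with equal totals. Uncalled values changed sign, among them Cyp51 (0.41 in all 6 libraries), Mvd (-0.39) and Lss (-0.29). With contractile level as a covariate Mvk stood at -0.014, Sqle at -0.072, Msmo1 at -0.071, Ebp at -0.061 and Scd2 at -0.075. By edgeR Mvk stood at -0.28, Sqle at -0.18, Cyp51 at -0.0064, Msmo1 at -0.094, Ebp at -0.081 and Scd2 at -0.27. By DESeq2 they stood at -0.31, -0.20, -0.029, -0.12, -0.10 and -0.29, with Acly at -0.0081. TMM scaling gave -0.013 for Sqle and -0.0033 for Ebp, median-of-ratios scaling -0.011 and -0.0012, and equal totals 0.031 for Hsd17b7. With each library left out in turn, signs varied for Ebp (-0.10 to 0.24), Fdft1 (-0.39 to 0.21), Fdps (-0.067 to 0.36), Hmgcs1 (-0.36 to 0.36), Hsd17b7 (-0.26 to 0.18), Lss (-0.56 to 0.016), Msmo1 (-0.22 to 0.38), Mvd (-0.69 to 0.066), Mvk (-0.12 to 0.36), Nsdhl (-0.54 to 0.20), Scd2 (-0.11 to 0.48), Sqle (-0.14 to 0.19) and Tm7sf2 (-0.22 to 0.57). The cause was not tested. No scaling moved the median of all genes by over 0.1. Tm7sf2, Mvk and Pmvk had the fewest reads, and intervals cover no error from shared sequence.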
